A study of Mus musculus with 12 samples.

Results

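The miR-183, miR-96 and miR-182 cluster is a group of 3 miRNAs cut from 1 stretch of mouse chromosome 6, and its 3 guide strands, mmu-miR-183, mmu-miR-96 and mmu-miR-182, were followed in cultures that turn into osteoclasts, the multinucleated cells that resorb bone. They are 3 of the 696 mouse miRNAs on the array and 3 of the 334 that were detected on at least 1 array. The members were chosen by their array names and selected on measured values, since the cluster was picked because it was off at day 1 and on afterwards. The changes from day 1 are therefore given as a description with no test, and tests are kept for day 5 against day 3, the neighbors and other miRNAs.

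The cells came from the long bones of male C57BL/6 mice, 6 to 8 weeks old. Bone marrow was depleted of B220/CD45R+ and CD3+ cells, the B and T lymphocytes, and all 3 groups received M-CSF and RANKL at 30 ng/ml each for 1, 3 or 5 days. M-CSF keeps osteoclast precursors alive and dividing, and RANKL drives them to fuse and mature. Every group held 4 independent cultures, each on 1 array read in 1 color, for 12 arrays in all; no culture without RANKL was analysed here, so time in culture and RANKL cannot be told apart. Slide 1 carried the 8 arrays of days 1 and 5, and slide 2, which had a scan of its own, carried the 4 of day 3, so day 3 and slide 2 cannot be told apart either. Between 186 and 276 mouse miRNAs were detected per array, and the number of arrays, 4 per day, limits the precision.

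The cultures are mixtures, and fewer cells of a type and less RNA per cell cannot be told apart in them. Several markers of other cells had lower signals at the later days, when the cluster was on. The summed signal of the erythroid markers on the array (2 of 3 listed) was 29020 to 57393 at day 1, 810 to 1771 at day 3 and 124 to 295 at day 5. mmu-miR-126-3p, of megakaryocytes and endothelium, was detected on all 4 arrays of day 1 and on none of days 3 and 5. The 3 lymphoid markers summed to 2471 to 3336 at day 1, 1267 to 1525 at day 3 and 1594 to 2026 at day 5, with mmu-miR-150 not detected at days 3 and 5, and 1 of the 3 was lower at day 5 than at day 1. The stromal markers (5 of 5 on the array) summed to 494 to 896 at day 1, 403 to 529 at day 3 and 2432 to 3545 at day 5, and 4 of the 5 were higher at day 5 than at day 1. The myeloid markers mmu-miR-223 and mmu-miR-142-3p were detected on all 12 arrays, and their sum was 97675 to 116658 at day 1, 52482 to 66806 at day 3 and 75199 to 91900 at day 5, with 1 of the 2 lower at day 5 than at day 1. These sums are unnormalized. Of all 334 tested miRNAs, 31.7% were higher and 29.0% lower at day 5 than at day 1, and nothing is read from the small counts of markers. The part of the other cell types in the cluster's change was not tested.

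The cluster is best known from sense organs, where the miRNAs are abundant in photoreceptors and in the hair cells of the inner ear, and where changes in the miR-96 seed cause hearing loss. A miRNA guides the Argonaute protein to messages that pair with its seed, bases 2 to 8 from the 5′ end, and thereby lowers their output. In the osteoclast lineage miR-182 has been described as a promoter of differentiation that targets Foxo3, and miR-183 as a regulator of heme oxygenase-1; FOXO1 is a known target of miR-96 and miR-182. These statements are background and were not measured here.

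The mature sequences are shown because the seeds decide which messages each member can pair with. They are the RefSeq -5p strands of build GRCm38.p6, matched to the array through the probes, with the seed in capitals.
mmu-miR-183: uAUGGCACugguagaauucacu
mmu-miR-96: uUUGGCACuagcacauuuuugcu
mmu-miR-182: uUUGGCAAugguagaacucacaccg
The 3 seeds are near copies of each other and none is the same as another. mmu-miR-96 and mmu-miR-182 share bases 2 to 7 and differ in the last of the 7 seed bases, so 6 of 7 are the same. mmu-miR-96 and mmu-miR-183 also share 6 of 7 seed bases, including the last, whereas mmu-miR-182 and mmu-miR-183 share 5 of 7. Behind the seed the likeness runs the other way. mmu-miR-182 and mmu-miR-183 have 12 of 14 compared bases in common after base 8, among them the run UGGUAGAA from base 9 in both. mmu-miR-96 shares 5 of 15 such bases with mmu-miR-182 and 6 of 14 with mmu-miR-183.

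The precursors are shown because they place the measured strand in each hairpin, with the mature strand in capitals.
Mir183: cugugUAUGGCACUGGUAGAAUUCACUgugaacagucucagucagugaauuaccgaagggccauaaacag
Mir96: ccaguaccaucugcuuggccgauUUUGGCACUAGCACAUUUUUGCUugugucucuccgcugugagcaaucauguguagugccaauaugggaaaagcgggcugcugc
Mir182: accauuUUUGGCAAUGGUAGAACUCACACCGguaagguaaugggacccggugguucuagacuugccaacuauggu
In GRCm38.p6 all 3 lie on the minus strand of chromosome 6, in the order of transcription Mir183 at chr6:30169668-30169737, Mir96 at chr6:30169446-30169551 and Mir182 at chr6:30165918-30165992. The gap between Mir183 and Mir96 is 116 bases and that between Mir96 and Mir182 is 3453 bases, and the whole span is 3820 bases. All 3 hairpins fall inside the bounds of Mirc35hg, an annotated long non-coding RNA gene at chr6:30158640-30174125, and the annotation table used here does not say whether a hairpin is exonic or intronic in it. The end of the Mir183 hairpin lies 4388 bases from the upstream end of Mirc35hg. The nearest genes in the table include Nrf1, at chr6:30047985-30153458, which codes for a transcription factor of respiratory and other housekeeping genes.

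The promoter window of Mirc35hg, from 250 bases before its start to 50 after (GRCm38.p6, chr6:30174076-30174375, minus strand), is shown because all 3 hairpins lie inside this gene's bounds. Capitals mark the 1 match found.
Mirc35hg: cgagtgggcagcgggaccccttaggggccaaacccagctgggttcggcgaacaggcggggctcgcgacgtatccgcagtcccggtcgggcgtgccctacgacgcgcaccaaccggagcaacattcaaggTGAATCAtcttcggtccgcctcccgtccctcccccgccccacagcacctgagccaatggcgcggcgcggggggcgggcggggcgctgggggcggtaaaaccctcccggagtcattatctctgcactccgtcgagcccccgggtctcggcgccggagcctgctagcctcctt
Letters for 4 factors of the osteoclast lineage were searched on both strands. For AP-1 only the loose form TGANTCA was searched, in which N stands for any base, and no stricter form. It occurred 1 time, as TGAATCA with A at the open position, 121 bases before the start. Of 32851 promoter windows of the same length, 7.81% hold a match to this loose form. The MITF E-box CACGTG, the NFAT letters TTTTCC and the PU.1 letters GAGGAAG did not occur in this window, against 7.15%, 23.4% and 13.6% of all windows. The window has a GC content of 70.3%, and the median over all windows is 52.7%. A match is a description of letters and not evidence of binding, and the arrays did not measure the host transcript.

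Each member is read by 2 probes with 10 spots each. The software subtracts the background and adds the probes up to a total signal, a linear intensity that can fall below 0, and it marks whether the miRNA was detected. The signals below are unnormalized, in the order of replicates 1 to 4, and levels of different miRNAs are not compared, since probes differ in brightness for the same amount of RNA.

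mmu-miR-183, the first hairpin in the direction of transcription, had total signals of -52.5, 6.34, -29.1 and 2.84 at day 1, when no array detected it. At day 3 the 4 arrays read 294, 296, 289 and 312, and at day 5 they read 497, 428, 459 and 383. Every later array lay above every day 1 array, which the choice of the members largely fixed in advance. Every day 5 array also lay above every day 3 array. For this and the other members such separation is description only, since it was not counted over all miRNAs. Without normalization the median of all 334 miRNAs rose by 0.36 on the log2 scale from day 3 to day 5. The mean signal was 298 ± 10.1 at day 3 and 442 ± 48.4 at day 5 (SD, n = 4 each).

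mmu-miR-96, the middle hairpin, read -20.4, 6.98, -4.19 and 2.83 at day 1, again with no detection. It read 684, 578, 547 and 553 at day 3 and 1126, 883, 1003 and 976 at day 5. The groups did not overlap on this unnormalized scale. The mean signal was 590.5 ± 63.6 at day 3 and 997 ± 100.4 at day 5 (SD, n = 4 each).

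mmu-miR-182, the last hairpin, read -16.0, 7.85, 11.8 and 12.1 at day 1 with no detection on any array. It read 448, 382, 356 and 402 at day 3, and 618, 466, 569 and 500.3 at day 5. All 4 day 5 arrays were again above all 4 day 3 arrays before normalization. The mean signal was 397 ± 38.8 at day 3 and 538 ± 68.2 at day 5 (SD, n = 4 each).

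**Figure D1:**
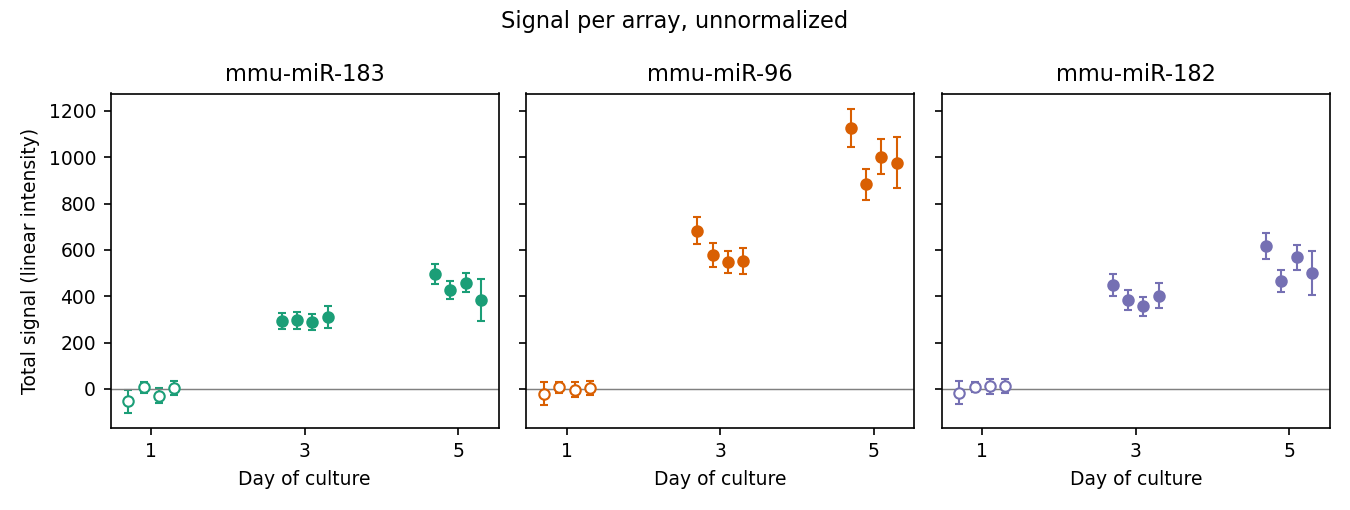
Unnormalized total signal (linear intensity) of the 3 members against the day of culture, 1 point per array with the error the software gives for that signal; open points were marked as not detected, filled points as detected. All 12 day 1 points are open and lie between -52.5 and 12.1, and all later points are filled, from 289 for mmu-miR-183 at day 3 to 1126 for mmu-miR-96 at day 5.

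The detection pattern of the members, none of 4 arrays at day 1 and all 4 at days 3 and 5, is what they were selected on. It was shown by 8 of the 334 miRNAs, or 2.40%. The other 5 were mmu-miR-489, mmu-miR-455, mmu-miR-200b, mmu-miR-34b-5p and mmu-miR-193b, named after their values were seen. Just outside the pattern were 2 miRNAs, mmu-miR-193 and mmu-miR-378*, each detected on 1 of 4 day 1 arrays and all later ones. mmu-miR-193 went from a normalized log2 signal of 5.48 at day 1 to 8.91 at day 5, and mmu-miR-378* from 5.63 to 11.19. On the reverse side, 14 miRNAs were detected on all day 1 arrays and on no later array.

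**Figure D2:**
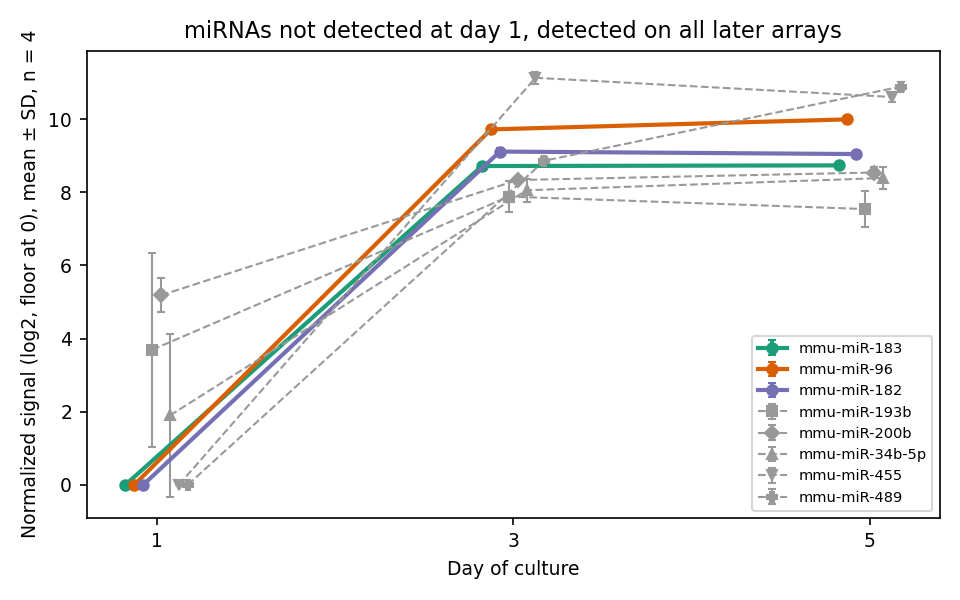
Normalized signal (log2, with the floor at 0) by day of culture for the 8 miRNAs detected on no day 1 array and on all arrays of days 3 and 5; points are means and bars SD over 4 arrays, members in color and the others in gray. The 3 members lie at the floor at day 1 and between 8.72 and 10.00 at days 3 and 5, and a point at the floor is not a measured level.

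For comparison across arrays the signals were quantile normalized over the 334 miRNAs, raised to a floor of 1 and put on the log2 scale. On this scale all 12 day 1 values of the members sat at the floor, 0. mmu-miR-183 was 8.72 ± 0.08 at day 3 and 8.74 ± 0.09 at day 5, mmu-miR-96 was 9.72 ± 0.08 and 10.00 ± 0.10, and mmu-miR-182 was 9.11 ± 0.11 and 9.05 ± 0.08 (SD, n = 4 each). In the fit over all miRNAs, 31.7% of the 334 were higher and 29.0% lower at day 5 than at day 1 with an adjusted p under 0.01. The 3 members are among the higher ones, and as the choice of members used this contrast nothing is read from it.

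Since day 1 had no detection, the size of the rise depends on the limit set for day 1, and no single lower bound held under every limit and processing tried. With a limit of 3 software errors on unnormalized signals, the day 5 signal was above the day 1 limit by 4.50-fold for mmu-miR-183, 10.1-fold for mmu-miR-96 and 5.46-fold for mmu-miR-182. Where the limit was set at the 5th percentile of detected signals instead, after normalization, it was above by 6.07-fold, 14.5-fold and 7.52-fold. Both of these limits were chosen after the data were seen. The third limit was, on each day 1 array, the dimmest normalized value among the miRNAs it detected, or the member's own value where that was higher. Against it the differences at day 5 were 8.35 for mmu-miR-183, 9.61 for mmu-miR-96 and 8.66 for mmu-miR-182 on the log2 scale, and 5.37, 6.54 and 5.10 without normalization. After normalization that dimmest value was itself at the floor on 3 of the 4 day 1 arrays, so the normalized differences are set by the floor and bound nothing. The unnormalized differences rest instead on day 1 signals, none above 21.8. The software error of the members on the day 1 arrays was 23.0 to 49.8. These day 1 signals thus lay below the error, and the unnormalized differences are no firm bound either. On day 1 replicate 4 the dimmest detected signal was -2.92, so each member's own undetected signal was the limit there. Without day 5 replicate 4, which detected the fewest miRNAs (186), the normalized differences were 7.18, 8.38 and 7.33. The smallest differences, 1.51, 2.46 and 1.72, came from normexp background correction. It was run with an offset of 50 added to each spot, which shrinks log2 differences from low signals.

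The difference between day 5 and day 3 was tested in the fit over all 334 miRNAs, with limma and Benjamini-Hochberg adjustment. Slide 2 held all day 3 arrays and slide 1 all day 5 arrays, so the test cannot tell a further rise from a slide difference. mmu-miR-96 was higher at day 5 by 0.27 on the log2 scale (SE 0.07), a 1.21-fold difference with a 95% interval of 1.09 to 1.35, and its limma adjusted p of 0.0102 was just above the threshold of 0.01. After normalization too, no day 5 array was as low as any of day 3, and the exact two-sided permutation test of this single miRNA gave p = 0.0286, the smallest that 4 against 4 arrays allow. mmu-miR-183 differed by 0.02 (SE 0.07, limma adjusted p = 0.90) and mmu-miR-182 by -0.07 (SE 0.07, limma adjusted p = 0.579), with groups that overlapped. The 95% intervals of the fold were 0.912 to 1.12 for mmu-miR-183 and 0.853 to 1.07 for mmu-miR-182. Of all miRNAs, 14.7% were called higher and 10.8% lower at day 5 than at day 3, and 0 of 3 members were called.

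The limma error of these contrasts pools all 12 arrays, and the 4 day 1 values of each member have no spread because they sit at the floor. A fit of days 3 and 5 alone, added after the data were seen, gave mmu-miR-96 a limma adjusted p of 0.0134. Of the alternatives that had been listed, 4 put mmu-miR-96 past the threshold: a stricter detection filter, no filter, a lower floor and the methods' analysis of variance. The others did not.

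The unnormalized signals gave larger changes. They rose from day 3 to day 5 by 1.48-fold for mmu-miR-183, 1.69-fold for mmu-miR-96 and 1.35-fold for mmu-miR-182, without overlap (exact two-sided permutation p = 0.0286 for each, n = 4 against 4, not adjusted). How many of the 334 miRNAs did not overlap on this scale was not counted, so the lack of overlap is not read as particular to the members. In the limma fit without normalization, which pools the spread of day 1, none of the members' differences was called (limma adjusted p = 0.492, 0.362 and 0.690). That fit called 81 of the 334 miRNAs higher and 5 lower at day 5 than at day 3. Without normalization the median of all 334 miRNAs also rose between these days, by 0.36 on the log2 scale, where the members' log2 differences were 0.56 for mmu-miR-183, 0.76 for mmu-miR-96 and 0.44 for mmu-miR-182. When arrays were scaled by their 75th percentile, taken over miRNAs that all arrays detected, mmu-miR-96 changed by 0.02 on the log2 scale while the median of all miRNAs shifted by -0.26. mmu-miR-182 changed sign without normalization, and mmu-miR-183 changed sign under 3 of the scalings or processings and without day 3 replicate 1 (-0.02), day 5 replicate 2 (-0.01) or day 5 replicate 3 (-0.00051).

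Ratios of 2 members within an array are not altered by a factor common to the whole array, though quantile normalization can alter them, and were used to compare the members' changes on the unnormalized signals. The ratios themselves have no meaning as amounts, and their change cannot tell day 5 against day 3 from slide 1 against slide 2. This comparison was chosen after the data were seen, with 3 pairs and adjustment over them. The log2 ratio of mmu-miR-96 to mmu-miR-182 was 0.57 ± 0.08 at day 3 and 0.89 ± 0.06 at day 5 (SD, n = 4 each). As plain ratios the day 3 arrays read 1.53, 1.51, 1.54 and 1.37 and the day 5 arrays 1.82, 1.89, 1.76 and 1.95. The groups did not overlap, with a difference of 0.32 on the log2 scale, exact permutation p = 0.0286 and adjusted p = 0.0857. The ratio of mmu-miR-96 to mmu-miR-183 differed by 0.19 (exact permutation p = 0.143, adjusted p = 0.214) and that of mmu-miR-182 to mmu-miR-183 by -0.13 (exact permutation p = 0.286, adjusted p = 0.286), both with groups that overlapped. The last of these became 0.034 in the authors' quantile normalized values.

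**Figure D3:**
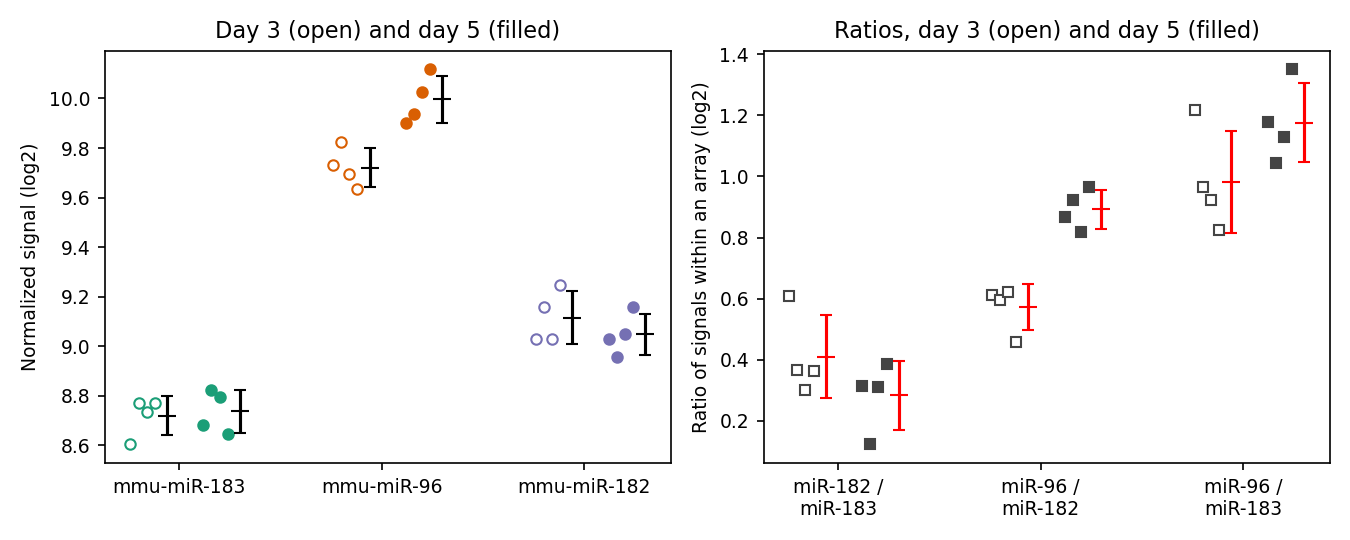
Left, normalized signal (log2) of each member on the 4 arrays of day 3 (open) and day 5 (filled), with mean and SD beside the points; heights of different members are not comparable. Right, log2 ratio of the unnormalized signals of 2 members within an array, same symbols. Only mmu-miR-96 (left) and the ratio of mmu-miR-96 to mmu-miR-182 (right) have day 5 arrays that all lie above the day 3 arrays.

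The 2 probes of a member gave like changes for mmu-miR-96 and mmu-miR-183. Their mean unnormalized signals at day 5 were 1.69-fold those at day 3 for both probes of mmu-miR-96, and 1.47-fold and 1.49-fold for those of mmu-miR-183. For mmu-miR-182 the probes differed, with 1.10-fold for the shorter probe (15 bases) and 1.42-fold for the longer (16 bases). The shorter one read 76.4 ± 7.37 at day 3 and 84.1 ± 18.3 at day 5, and the longer one 321 ± 39.3 and 454 ± 50.3 (SD, n = 4 each). The day 3 and day 5 arrays overlapped for the shorter probe and did not for the longer. The ratios above that include mmu-miR-182 rest on both probes added up and were not taken for each probe.

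The only opposite arm of the precursors on the array is mmu-miR-183*, the -3p strand of Mir183, read by 4 probes. It was detected on none of the 12 arrays, with total signals from -57.8 to 35.4. Its day 3 signals were 34.7, 2.56, 21.9 and -12.8 and its day 5 signals 35.4, 13.3, 15.6 and -57.8, and these overlapped the day 1 range of -8.19 to 33.1. From the precursor with 4 of 4 detections of one arm at days 3 and 5, the other arm was thus not detectable on these arrays. It was not tested, since it passed no detection filter.

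The array lists 7 other entries on chromosome 6 within 2 Mb of the members' listed probe positions, in mm9 coordinates. None of them showed the members' detection pattern. The neighbors mmu-miR-129-5p, mmu-miR-335-3p and mmu-miR-335-5p were detected on no array. mmu-miR-29a, which lowers the output of many extracellular matrix messages, was detected on all 12 arrays, with 14.01 ± 0.09 at day 1, 14.12 ± 0.05 at day 3 and 14.96 ± 0.09 at day 5 (log2, SD, n = 4 each). Its rise by day 5 was 0.95 (limma adjusted p = 7.4e-07), of which 0.11 lay between days 1 and 3 (limma adjusted p = 0.224) and 0.84 between days 3 and 5 (limma adjusted p = 2.0e-05). mmu-miR-29b rose from 12.04 ± 0.32 to 13.94 ± 0.14, by 1.90 (limma adjusted p = 1.1e-06), and its signal can also come from its other gene copy outside chromosome 6. mmu-miR-29a* rose by 4.46 in the same fit (limma adjusted p = 2.1e-04), but it was detected on 1, 0 and 3 arrays of days 1, 3 and 5, in the authors' deposited values the difference was -0.22, and under 5 other settings it was 1.05 to 2.58 with limma adjusted p from 0.0425 to 0.515. mmu-miR-29b-1* differed by -0.23 between day 5 and day 1 (limma adjusted p = 0.553). Of the 4 neighbors tested, 3 were thus higher at day 5, against 31.7% of all miRNAs, and these 3 come from the miR-29a and miR-29b entries. Over the rest of chromosome 6 as well, 28 entries other than the members are listed, of which 14 were tested, 4 were higher and 7 lower at day 5 than at day 1, where 31.7% of all tested miRNAs were higher and 29.0% lower. Of these entries 1, mmu-miR-489, had the members' detection pattern, and its listed position lies more than 2 Mb from theirs.

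No other array entry could be shown to share the members' seed. Of the 696 mouse entries, 543 were matched through their probes to 1 RefSeq mature sequence, and none of these other than the members had the same bases 2 to 7. Among RefSeq's mature miRNAs there is 1 further with these bases, mmu-miR-1271-5p, with the bases of mmu-miR-96 and mmu-miR-182. No matched array entry measures it.

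The listed miRNAs described as acting on osteoclast formation moved in both directions. Of the 6 described as promoters, 5 were tested, 3 were higher and 1 lower at day 5 than at day 1, and the median change was 0.95 on the log2 scale. Of all tested miRNAs 31.7% were higher and 29.0% lower, with a median of 0.11. mmu-miR-29b rose by 1.90 and mmu-miR-29a by 0.95, as above, and mmu-miR-29c rose by 0.95 (limma adjusted p = 5.2e-07). mmu-miR-148a fell by 0.43 (limma adjusted p = 1.8e-04). Of the 8 described as restraining, 7 were tested, 3 were higher and 1 lower, with a median of 0.25, beside the same shares and median over all tested miRNAs. mmu-miR-125a-5p, described as acting on TRAF6, rose by 1.92 (limma adjusted p = 7.5e-05). mmu-miR-146a, a brake on NF-kB signaling through TRAF6 and IRAK1, rose by 1.16 (limma adjusted p = 3.4e-04), and mmu-miR-34a rose by 1.00 (limma adjusted p = 2.5e-05). mmu-miR-155, which acts on MITF, was detected on 4, 0 and 3 arrays of days 1, 3 and 5. It fell by 2.45 from day 1 to day 3 (limma adjusted p = 1.2e-05) and rose by 1.40 from day 3 to day 5 (limma adjusted p = 0.00155). Between day 1 and day 5 it fell by 1.05 (limma adjusted p = 0.00368). This last call was lost without day 1 replicate 1 (limma adjusted p = 0.0103) or replicate 3 (0.0118). It was also lost under 4 other settings, with limma adjusted p from 0.0142 to 0.127. None of the 14 listed had the members' detection pattern.

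**Figure D4:**
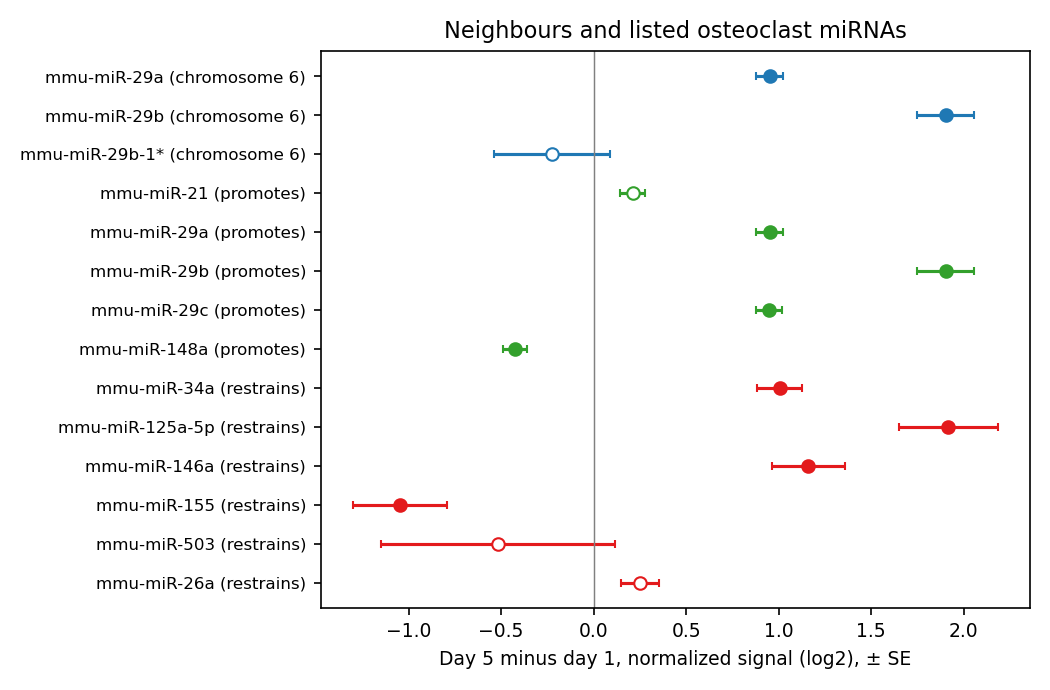
Day 5 minus day 1 in normalized signal (log2) with SE for the chromosome 6 neighbors and the listed osteoclast miRNAs that were detected on all 4 day 1 arrays and at least 3 day 5 arrays; filled points have a limma adjusted p under 0.01. mmu-miR-29b and mmu-miR-125a-5p lie farthest to the right, at 1.90 and 1.92, and mmu-miR-155 farthest to the left, at -1.05.

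The pattern most like that of the members was sought by Pearson correlation with the mean of their log2 values over the 12 arrays. The 5 highest were mmu-miR-23a (r = 1.000), mmu-miR-455* (0.999), mmu-miR-455 (0.999), mmu-miR-378 (0.998) and mmu-miR-34c (0.998). Such values follow from a step between day 1 and the later days, whatever its size, and 52 of 331 other miRNAs had an r over 0.9. mmu-miR-23a went from 15.45 at day 1 to 16.01 at days 3 and 5 without any spread within a day, and it was saturated in part on 8 of 12 arrays. mmu-miR-378, present at every time point, was 9.65 at day 1, 14.50 at day 3 and 14.82 at day 5. mmu-miR-455 had the detection pattern of the members but fell from 11.13 at day 3 to 10.61 at day 5 (limma adjusted p = 0.00155). mmu-miR-455* and mmu-miR-34c, both off at day 1, were detected on 4 arrays of day 3 and 3 of day 5. Over the 8 arrays of days 3 and 5 alone the members' own correlations with each other were -0.04, -0.19 and -0.004, so the likeness over all arrays rests on the step from day 1.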

How the data were processed

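The members and lists were chosen with earlier results of these data known. Scanner files deposited by the authors, written by Agilent Feature Extraction 9.5.3.1, hold background-subtracted linear intensity values with no normalization between arrays, of which the total signal per miRNA and its detection mark were used. The log2 table deposited by the authors, quantile normalized in GeneSpring, served as an alternative.

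Quantile normalization was applied to the total signals of 334 mouse miRNAs with detection on 1 or more arrays, with values under 1 set to 1 (9.28% of them) before the log2 scale was taken. A model with 1 mean per day was fitted to all 12 arrays with limma 3.58.1 in R 4.3.3, with a threshold of 0.01 on the Benjamini-Hochberg adjusted p. Single values were compared by exact permutation in Python with scipy 1.17.1. The code was tested on simulated data. miRNAs named were the members, opposite arms, chromosome 6 entries within 2 Mb, seed relatives, up to 4 of each regulator list with the largest change from day 1 to day 5, and the 5 most alike. Sequences came from RefSeq (GRCm38.p6). Alternatives covered scaling, filter, floor, background, spot signal, deposited values, replicate block, trend, analysis of variance and each array left out.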

Additional observations from a re-analysis of the deposited data

Results flagged for a closer look

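The total signal of mmu-miR-182 on day 1 replicate 1, -15.9647, stood apart from the other 3 day 1 arrays, which read 7.85, 11.8 and 12.1 (gap to range ratio 0.848, above the critical value of 0.829). All 4 were below detection. It was the only one of 15 groups of 4 values that was marked, and chance marks about 1 in 20 such groups.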

How the results depend on the processing

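Differences from the day 1 limit kept their direction under all alternatives run, which the choice of the members largely fixed in advance. Their size moved so much that none is a firm lower bound. Against the dimmest detected value, in log2 and for days 3 and 5 in turn, they were 8.33 and 8.35 for mmu-miR-183, 9.33 and 9.61 for mmu-miR-96 and 8.72 and 8.66 for mmu-miR-182. In the same order they were 5.53, 5.36, 6.51, 6.53, 5.39, 5.09 with the 75th percentile over miRNAs detected everywhere, 5.60, 5.67, 6.58, 6.84, 5.46, 5.40 with it over all mouse miRNAs, and 4.80, 5.37, 5.79, 6.54, 4.66, 5.10 without normalization. They were 6.75, 6.77, 7.75, 8.03, 6.67, 6.60 with quantile normalization over all miRNAs, and the same without a filter. With the stricter detection filter they were 4.24, 4.29, 5.25, 5.52, 4.63, 4.59, with normexp 1.53, 1.51, 2.28, 2.46, 1.76, 1.72, with the authors' deposited values 9.40, 9.36, 10.49, 10.77, 9.77, 9.76, and with a floor of 0.1 10.82, 10.84, 11.82, 12.10, 11.22, 11.15. With the limits added after seeing the data they were 2.58, 2.60, 3.58, 3.86, 2.98, 2.91 (5th percentile) and 1.61, 2.17, 2.59, 3.34, 2.01, 2.45 (3 software errors). Leaving out 1 array gave 7.12 to 8.73 and 7.18 to 8.75 for mmu-miR-183, 8.14 to 9.71 and 8.38 to 9.99 for mmu-miR-96 and 7.43 to 9.11 and 7.33 to 9.04 for mmu-miR-182.

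For day 5 minus day 3, mmu-miR-96 was 0.28 with the stricter filter (limma adjusted p = 0.00425) and 0.27 without a filter (0.00411), with a floor of 0.1 (0.00881) and in the methods' analysis of variance (0.00253, adjusted without limma), all past 0.01. It ranged from 0.24 to 0.31 with 1 array left out (limma adjusted p from 0.0106 to 0.0326), and it was 0.27 with the 4 numbers as a replicate block (0.0302), 0.25 with the processed spot signal (0.0190), 0.18 with normexp (0.0341), and 0.27 with an intensity trend in limma (0.199). mmu-miR-183 reversed to -0.17 with the 75th percentile over miRNAs detected everywhere, -0.016 with normexp and -0.044 in the deposited values, and ranged from -0.023 to 0.051 with 1 array left out. mmu-miR-182 reversed to 0.44 without normalization and ranged from -0.10 to -0.02 with 1 array left out. The ratio of mmu-miR-182 to mmu-miR-183 reversed to 0.034 in the deposited values. The causes were not tested.

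The replicate numbers were not taken to pair the cultures: same-numbered arrays of different days deviated with correlations from -0.44 to 0.70, over 0.1 in 7 of 12 pairs, and arrays of other numbers from -0.66 to 0.62, over 0.1 in 12 of 36. The block changed no call of a member. Counts moved by over 1.5 times as follows. Higher at day 5 than at day 1 were 106 miRNAs, and 65 without normalization. Higher at day 5 than at day 3 were 49, and 25 and 22 with the 75th percentiles over detected and all miRNAs, 81 without normalization and 30 in the deposited values. Lower were 36, and 18 with the latter percentile and 5 without normalization. Among other miRNAs named here, mmu-miR-29a* reversed to -0.22 in the deposited values. Members of the regulator lists not named above reversed too: mmu-miR-21 to -0.014 and -0.0047 (75th percentile over detected miRNAs; no normalization), mmu-miR-503 to 0.31 (deposited values), and mmu-miR-7b to -1.83, -1.49, -1.86, -1.33 and -1.33 (both 75th percentiles, no normalization, quantile over all, no filter). With 1 array left out mmu-miR-503 ranged from -0.82 to 0.15 and mmu-miR-7b from -0.12 to 0.50.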

Other observations

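The listed mm9 positions of the probes put the cluster in the same order along chromosome 6 as RefSeq does in GRCm38.p6, with the probes for mmu-miR-182 at 30115935 to 30115948, those for mmu-miR-96 at 30119472 to 30119491 and those for mmu-miR-183 at 30119678 to 30119694 (1 probe of each). Within the Mir183 hairpin the order differs: the listed mmu-miR-183* position, 30119720, lies above that of mmu-miR-183, whereas on the minus strand RefSeq puts the -5p strand, at 30169711 to 30169732, above the -3p strand. No coordinates were converted between builds.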
